A study of Mus musculus with 60 samples.

Results

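A set of 8 genes, of 47574 entries measured, that carry dopamine and cAMP signals in striatal neurons was followed through 60 mouse brain RNA-seq libraries. They were chosen by name: Gnal, Gng7, Rgs9, Rasd2, Adcy5, Ppp1r1b, Ppp1r9b and Arpp21. The libraries were labelled cortex or striatum, 30 each, and came from C57BL/6N mice aged 3 months of 2 lines carrying altered huntingtin (Htt) alleles. Δ12-line mice were labelled +/+, Δ12/+ or Δ12/Δ12, where Δ12 is a designed deletion within exon 12 with a new splice donor, made by genome editing in embryonic stem cells. KO-line mice were labelled +/+ or KO/+, where KO arose from one founder whose deletion was imprecise and removed the splice donor; no homozygous KO group was among the libraries. Each of the 10 labelled combinations of tissue, line and genotype held 6 libraries, 3 labelled male and 3 labelled female. One library labelled striatum of the KO line, KO/+ female 3, carries a title that names the other line, and it was placed by its genotype label. Titles number the libraries of each line, genotype and sex alike in both labelled tissues, so same-numbered cortex and striatum libraries may share a mouse. The labels do not state it. The p-values measure the spread between these libraries. The main fit and the correlations across both labelled tissues treated the libraries as separate.

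In the deposited tables of build GRCm38.p4, Ppp1r1b lies at chr11:98348404-98357796, Ppp1r9b at chr11:94991035-95006899 and Rgs9 at chr11:109225355-109298129. Rasd2 lies at chr8:75213944-75224113, Arpp21 at chr9:112065091-112235938, Gng7 at chr10:80948624-81014945, Adcy5 at chr16:35154877-35305737 and Gnal at chr18:67088336-67226792. Rgs9, Arpp21 and Gng7 are on the minus strand and the other genes are on the plus strand. In the GENCODE M21 annotation, exons of Ppp1r1b, Arpp21 and Gnal overlap exons of 1700003D09Rik, 2900079G21Rik and Mppe1, in that order, on the opposite strand. The library kit was directional, but no source used here states that strand was used in the quantification, so reads of these pairs may not be separated.

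In a striatal projection neuron, dopamine and adenosine receptors act through G proteins on adenylyl cyclase, which makes cAMP. cAMP activates protein kinase A, whose substrates include inhibitors and partners of protein phosphatases and calmodulin. The projection neurons that respond to dopamine through Drd1 raise cAMP, and those that respond through Drd2 lower it. Gnal encodes the stimulatory G protein alpha subunit that stands in for Gnas at the receptors that raise cAMP, such as Drd1. Gng7 encodes a gamma subunit that assembles with the Gnal product. Rgs9 speeds the shut-off of inhibitory G proteins downstream of Drd2. Rasd2 encodes Rhes, a striatum-enriched small GTP-binding protein. Adcy5 encodes the main adenylyl cyclase of the striatum. Ppp1r1b encodes the dopamine- and cAMP-regulated phosphoprotein DARPP, which inhibits protein phosphatase when protein kinase A has phosphorylated it. Ppp1r9b encodes spinophilin, which anchors that phosphatase in dendritic spines, and Arpp21 encodes a cAMP-regulated phosphoprotein that binds calmodulin.

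RefSeq promoter windows on GRCm38.p6 were found for 6 of the 8 genes. The 250 bases before the annotated start are shown for Rasd2 and Adcy5, whose levels differed most between tissues, for Rgs9, whose correlations with the other genes were lowest in the KO line, and for the Gng7 window that held the most motif matches. The last bases of the Gng7 window lie inside the gene as the deposited tables place it. Capitals mark a match on either strand to the GC box GGGCGG or the TATA motif TATAAA.
Rasd2, chr8:75213694-75213943, plus strand: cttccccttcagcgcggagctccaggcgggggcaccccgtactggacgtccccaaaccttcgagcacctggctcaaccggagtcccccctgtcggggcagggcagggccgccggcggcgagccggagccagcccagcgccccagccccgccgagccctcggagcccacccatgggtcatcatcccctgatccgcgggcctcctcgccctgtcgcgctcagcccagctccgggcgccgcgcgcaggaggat
Adcy5, chr16:35154614-35154863, plus strand: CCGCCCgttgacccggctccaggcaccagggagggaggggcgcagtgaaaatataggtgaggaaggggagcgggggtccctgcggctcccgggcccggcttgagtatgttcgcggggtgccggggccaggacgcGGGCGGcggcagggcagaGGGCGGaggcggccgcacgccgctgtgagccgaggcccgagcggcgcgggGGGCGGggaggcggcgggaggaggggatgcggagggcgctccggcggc
Rgs9, chr11:109298182-109298431, minus strand: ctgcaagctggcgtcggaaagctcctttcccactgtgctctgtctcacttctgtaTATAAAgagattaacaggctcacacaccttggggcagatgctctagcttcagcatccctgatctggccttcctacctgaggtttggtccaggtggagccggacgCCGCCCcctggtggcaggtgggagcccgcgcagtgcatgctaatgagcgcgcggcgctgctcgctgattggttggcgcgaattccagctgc
Gng7, chr10:81014926-81015175, minus strand: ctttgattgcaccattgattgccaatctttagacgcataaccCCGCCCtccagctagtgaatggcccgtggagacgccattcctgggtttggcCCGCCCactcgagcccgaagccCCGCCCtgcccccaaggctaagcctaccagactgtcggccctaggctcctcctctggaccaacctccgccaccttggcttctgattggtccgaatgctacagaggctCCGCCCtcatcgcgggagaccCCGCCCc

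The cAMP response element TGACGTCA was not in any of the 15 windows of these 6 genes, and 1.62% of 27025 first promoter windows of the same length held it. Its shorter core TGACG, which is contained in the full element, was in 2 of 9 windows of Arpp21 and in 1 of 2 of Gng7. None of these was the most upstream window of its gene. The core was in 17.9% of all first windows, a share that does not cover later windows and is no like comparison here. GC boxes were in the windows of Adcy5 (4 matches), Gng7 (5 matches) and Rgs9 (1 match), against 32.9% of all first windows with at least one. The TATA motif was in the Rgs9 window, 195 bases before the start, against 13.0% of all first windows. These matches describe letters in the windows and were not tested as binding sites.

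Expression was read as FPKM (fragment numbers normalised for transcript length and library size), divided by a factor for each library so that the typical gene was level across libraries (scaled FPKM). The tissue labels went against expression in 30 of the 60 libraries. Slc17a7, the vesicular glutamate transporter of cortical excitatory neurons, was at 104 to 197 scaled FPKM in 30 libraries, called cortex-like here, and at 5.60 to 69.6 in the other 30, called striatum-like. All libraries labelled Δ12-line +/+ or Δ12/+ and the male Δ12/Δ12 libraries were cortex-like, whichever tissue they were labelled. All KO-line libraries and the female Δ12/Δ12 libraries were striatum-like. The summed level of 6 striatal neuron markers, among them Drd1, Drd2, Adora2a, Tac1 and Penk, ran from 609 to 1196 in the striatum-like libraries and from 61.3 to 321 in the cortex-like ones. Sex-linked transcripts matched the label in 30 of 60 libraries. In the KO line Htt was at 11.6 to 12.6 FPKM as deposited in 6 libraries, all labelled KO/+, and at 15.1 to 18.1 FPKM in the other 18, which included 6 labelled KO/+. In scaled FPKM the gap was narrower, with 12.7 to 15.7 in the 6 and 16.6 to 20.7 in the 18. Groups are named below by their labels, and groups formed from expression or from Htt were not tested. The assignment of genotype labels to libraries may be wrong as well, which was not tested, since beyond Htt no transcript used here marks the genotype. Read depth is not given in the files. The deposited bounds, read as counting error, imply an estimated median of 18250000 fragments in the striatum-like libraries and 14450000 in the cortex-like ones, and the 10 highest entries took 56.1% to 92.3% of the FPKM of a library. The deposited confidence bounds of the 8 genes lay a median of 4.25% of the level to either side in the striatum-like libraries and 8.43% in the cortex-like ones.

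All 8 genes were higher in every striatum-like library than in any cortex-like library, and the size of the gap differed widely between them. Rasd2 had the widest gap, with 120 to 229 scaled FPKM in the striatum-like libraries (median 163) and 2.02 to 48.4 in the cortex-like ones (median 4.76), a 34.3-fold ratio of medians. Adcy5 ranged from 120 to 240 (median 171) against 3.28 to 54.9 (median 5.48), a 31.2-fold ratio. In bulk tissue, fewer cells of a type and less RNA per cell cannot be told apart. Gng7, with 145 to 268 (median 196) against 4.69 to 65.1 (median 9.65), had a 20.3-fold ratio. Ppp1r9b, with 121 to 180 (median 144) against 6.62 to 52.4 (median 9.88), had a 14.6-fold ratio. Rgs9, with 71.8 to 143 (median 106) against 4.78 to 35.3 (median 7.47), had a 14.2-fold ratio. These 5 genes, which act from the G protein to the phosphatase anchor, were all below 25 scaled FPKM in cortex-like libraries other than one. Gnal, with 79.0 to 126 (median 97.1) against 5.77 to 35.1 (median 10.5), had a 9.22-fold ratio. Ppp1r1b, with 345 to 729 (median 521) against 36.7 to 206 (median 60.5), had an 8.61-fold ratio. Arpp21 stood apart from the other 7, with 205 to 343 (median 261) against 98.7 to 165 (median 127) and a 2.05-fold ratio. Among the 8396 entries with a mean of at least 5 scaled FPKM, the median ratio was 0.905 and 3.39% of entries had a ratio of 5 or more. Of those entries, 9 exceeded the ratio of Rasd2, 92 that of Ppp1r1b and 1576 that of Arpp21. With FPKM as deposited the ratios of all 8 genes were lower, from 25.0 for Rasd2 to 1.52 for Arpp21. No test was made of the ratios, because the tissue was read from the same libraries.

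**Figure D1:**
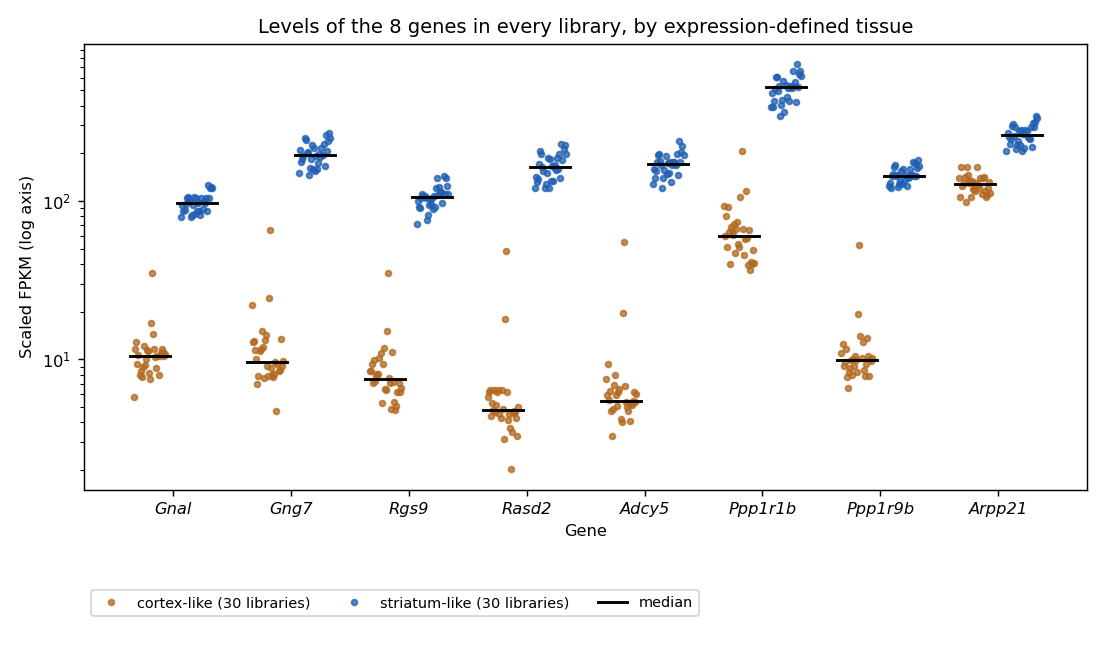
Scaled FPKM (log axis) of each of the 8 genes in all 60 libraries, grouped as cortex-like or striatum-like by Slc17a7; each point is a library and each bar a median. The 2 clouds of every gene are apart, from 8.61-fold or more in medians for 7 genes to 2.05-fold for Arpp21, and single cortex-like libraries stand above the rest.

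Because FPKM is per length, levels can be ordered between genes. In the striatum-like libraries the order of median scaled FPKM was Ppp1r1b, Arpp21, Gng7, Adcy5, Rasd2, Ppp1r9b, Rgs9 and Gnal. Ppp1r1b was above Arpp21 in 30 of 30 libraries, with a median ratio of 1.93 within a library. The order of Adcy5 over Rasd2 held in 22 of 30 libraries and that of Rasd2 over Ppp1r9b in 22 of 30, so these neighbours were not separated in every library. In the cortex-like libraries Arpp21 came first, above Ppp1r1b in 28 of 30 libraries with a median ratio of 2.24, and the rest followed from Gnal at a median of 10.5 down to Rasd2 at 4.76. Gnal, Ppp1r9b and Gng7 were not separated there, since Gnal exceeded Ppp1r9b in 17 of 30 libraries and Ppp1r9b exceeded Gng7 in 14 of 30. Gnal was thus the lowest of the 8 in the striatum-like libraries, and Rasd2 was the lowest in the cortex-like ones.

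A pair of cortex-like libraries, both labelled striatum of the Δ12 line and Δ12/+, stood apart. Male 3 had the highest cortex-like level of all 8 genes, with 205.7 scaled FPKM of Ppp1r1b, 165 of Arpp21, 65.1 of Gng7, 54.9 of Adcy5, 52.4 of Ppp1r9b, 48.4 of Rasd2, 35.3 of Rgs9 and 35.1 of Gnal. Male 2 had 24.4 of Gng7, 19.5 of Adcy5, 19.4 of Ppp1r9b, 18.1 of Rasd2, 16.9 of Gnal and 15.2 of Rgs9, each above every other cortex-like library except male 3. Slc17a7 was at 104 in male 3, its lowest cortex-like level, and at 153 in male 2. The part of tissue composition in these values was not tested.

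In KO-line libraries labelled striatum, all 8 genes were higher in KO/+ than in +/+. The share called higher among all entries tested was 3.51% (limma with Benjamini-Hochberg adjustment, adjusted p under 0.05), or 6.91% in either direction. The median log2 fold change of the 8 genes was 0.42, against 0.019 over all entries. Of the G protein subunits, Gnal was at 97.3 to 123 scaled FPKM in KO/+ (median 113) and at 79.2 to 96.9 in +/+ (median 86.1). The 2 groups did not overlap, and the log2 fold change was 0.35 ± 0.06 (SE, n = 6 and 6, limma adjusted p = 0.0105). Gng7 was at 195 to 268 in KO/+ (median 234) and at 145 to 191 in +/+ (median 160), again without overlap. Its log2 fold change was 0.49 ± 0.08 (SE, limma adjusted p = 0.00892). Among the regulators, Rgs9 was at 111 to 140 in KO/+ (median 118) and 75.2 to 107 in +/+ (median 90.1), without overlap. Its log2 fold change was 0.43 ± 0.08 (SE, limma adjusted p = 0.012). Rasd2 was at 159 to 227 in KO/+ (median 198) and 120 to 165 in +/+ (median 134), so that the lowest KO/+ library lay within the +/+ range. Its log2 fold change was 0.50 ± 0.08 (SE, limma adjusted p = 0.00794).

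The cyclase Adcy5 was at 169 to 222 scaled FPKM in KO/+ (median 196) and at 120 to 176 in +/+ (median 144), with overlap at the edges and a log2 fold change of 0.41 ± 0.09 (SE, limma adjusted p = 0.0215). Ppp1r1b was at 533 to 664 in KO/+ (median 621) and at 345 to 518 in +/+ (median 429). It did not overlap and had the greatest of the 8 differences, with a log2 fold change of 0.52 ± 0.08, or 1.43-fold (SE, limma adjusted p = 0.00643). Ppp1r9b was at 145 to 180 in KO/+ (median 164) and at 123 to 146 in +/+ (median 130), with a log2 fold change of 0.31 ± 0.07 (SE, limma adjusted p = 0.0219). Arpp21 was at 244 to 343 in KO/+ (median 304) and at 206 to 263 in +/+ (median 221), with a log2 fold change of 0.38 ± 0.09 (SE, limma adjusted p = 0.0288). Non-overlap of the groups, with KO/+ higher, was thus seen in 4 of 8 genes and in 2.1% of all entries. The 8 genes varied together across the KO-line libraries, as described below, so counts of them are not counts of independent genes.

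This difference rested on the scaling, the libraries in the fit and single libraries. With FPKM as deposited, none of the 8 genes was called and their median log2 fold change was 0.32; over all entries 22 were then called higher and 280 lower, against 555 and 538 after scaling. With all 30 libraries of the labelled tissue in one fit, which includes the mixed Δ12/Δ12 group, none of the 8 was called either. The count fell from 8 to 5 without +/+ male 1, without +/+ female 1 or without KO/+ female 2, with Adcy5, Arpp21 and Ppp1r9b lost each time. Arpp21 was also lost without +/+ female 3, KO/+ male 3, KO/+ female 1 or KO/+ female 3, and Ppp1r9b also without +/+ female 3. All 8 log2 fold changes stayed above 0 in these fits. Over all entries, 560 to 1243 were called in either direction as each library was left out in turn.

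No difference in Htt was called between these labelled groups (log2 fold change −0.14 ± 0.11, SE, limma adjusted p = 0.499). Of the 6 KO/+ libraries, 3 were at 12.7, 13.7 and 15.4 scaled FPKM, below the lowest +/+ library at 16.8, and the other 3 were at 18.2, 18.3 and 19.7, within the +/+ range of 16.8 to 20.7. The comparison of KO/+ with +/+ therefore rests on labels that Htt bears out in only some of the libraries. The summed striatal neuron markers were at 853 to 1164 in KO/+ and at 651 to 800 in +/+, and 4 of these 6 markers were called higher (Drd1, Drd2, Penk and Tac1). The summed level of 3 oligodendrocyte markers was at 653 to 729 in KO/+ and at 787 to 945 in +/+, without overlap, and 2 of the 3 were called lower. The summed level of 6 cortical excitatory markers was at 17.5 to 56.5 in KO/+ and at 23.8 to 41.3 in +/+, with overlap, and 1 of the 6 was called higher and 1 lower. Slc17a7, which also served to read the tissue, is one of the 6 and was itself at 6.86 to 35.2 in KO/+ and at 9.68 to 25.5 in +/+. Of 4 astrocyte markers, 1 was called lower (Aqp4). None of 4 microglial, 4 choroid plexus, 4 endothelial or 3 leptomeningeal markers was called. The part of cell composition in the difference of the 8 genes was not tested.

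**Figure D2:**
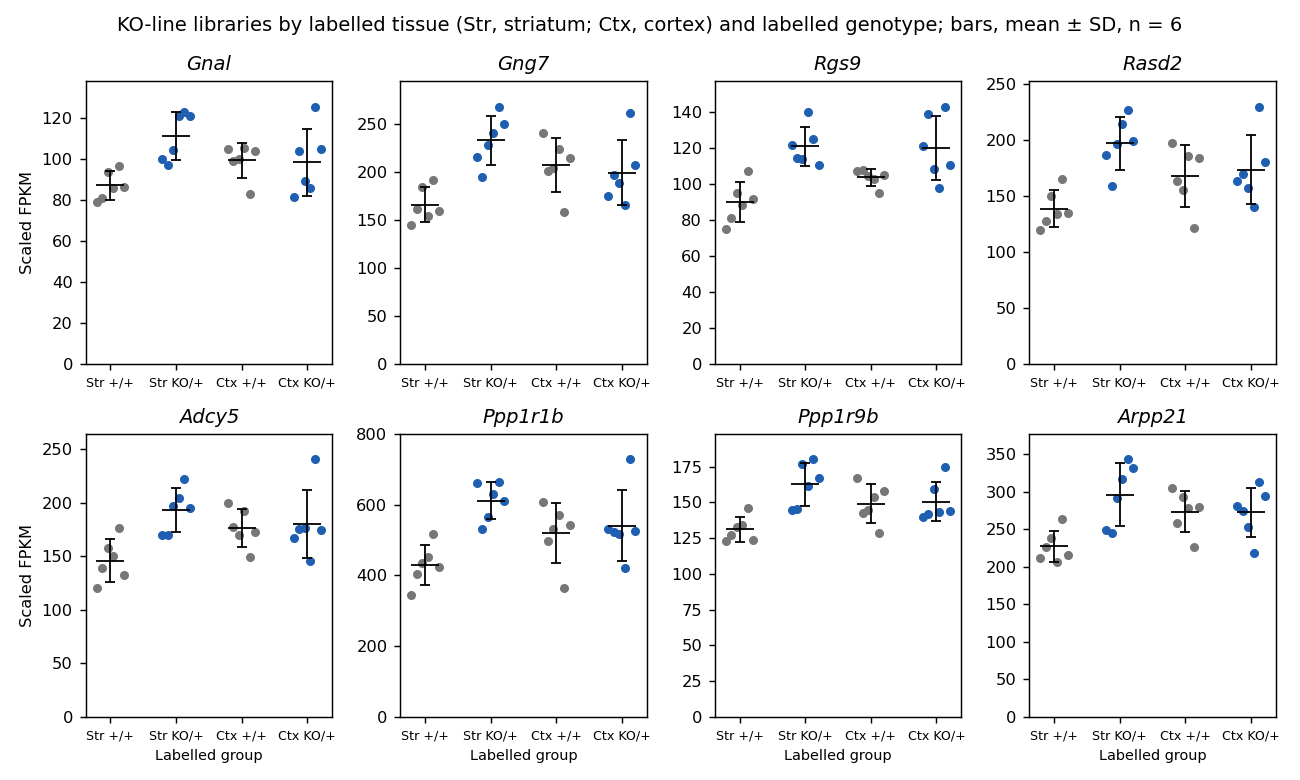
Scaled FPKM of the 8 genes in the 24 KO-line libraries by labelled tissue and genotype; points are libraries and bars are mean ± SD of 6. The labelled striatum +/+ libraries are the lowest of the 4 groups on average for every gene, and the 2 groups labelled cortex overlap widely.

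In KO-line libraries labelled cortex, which were also striatum-like, none of the 8 genes was called, where 0.00632% of all entries were called higher and 0.0885% in either direction (limma). Their log2 fold changes lay between −0.06 for Gng7 and 0.20 for Rgs9. Ppp1r1b was at 422 to 729 scaled FPKM in KO/+ and at 365 to 609 in +/+, with a log2 fold change of 0.06 ± 0.14 (SE, limma adjusted p = 0.892). Rgs9 was at 97.6 to 143 in KO/+ and at 95.0 to 107 in +/+, with a log2 fold change of 0.20 ± 0.09 (SE, limma adjusted p = 0.37). At an unadjusted p under 0.05 none of the 8 passed, Rgs9 being nearest at 0.0545. The groups of all 8 genes overlapped, while 0.417% of all entries were higher in KO/+ without overlap. The summed cortical excitatory markers were at 20.6 to 92.4 in KO/+ and at 19.8 to 44.2 in +/+ here, the striatal neuron markers at 742 to 1196 and 675 to 936, and none of either list was called. Slc17a7, part of the cortical sum, was itself at 9.50 to 69.6 in KO/+ and at 7.15 to 28.9 in +/+. The part of cell composition here was not tested.

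The effect of KO/+ in labelled striatum minus that in labelled cortex was tested directly in a single limma fit, which treated all libraries as separate. None of 15917 entries passed after adjustment, or 0%. At an unadjusted p under 0.05, 11.2% of all entries and 7 of the 8 genes passed, all but Rgs9 at 0.0822. Since the 8 genes varied together, these 7 are not independent results. The differences of the 8 genes on the log2 scale were all positive, from 0.23 for Rgs9 to 0.55 for Gng7. Gng7 had an unadjusted p of 0.00176 and a limma adjusted p of 0.298, and the adjusted p of the others ran up to 0.499. A difference in effect between the labelled tissues was therefore not shown. The levels themselves show where the groups stood: Ppp1r1b had medians of 429 in striatum +/+, 536 in cortex +/+, 525 in cortex KO/+ and 621 in striatum KO/+. Gng7 had medians of 160, 209, 193 and 234 in the same order, and Adcy5 of 144, 175, 175 and 196. The labelled striatum +/+ libraries were thus below the labelled cortex +/+ libraries of the same line in median.

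Against Htt, the 6 KO-line libraries with low Htt were compared with the others as a description only. Ppp1r1b was at 524 to 729 scaled FPKM (median 572) in the 6 libraries, at 422 to 664 (median 546) in the 6 others labelled KO/+ and at 345 to 609 (median 474) in the 12 labelled +/+. Rgs9 was at 111 to 143 (median 130), at 97.6 to 125 (median 112) and at 75.2 to 107 (median 98.8) in the same sets. Rgs9 was the gene with the most low-Htt libraries above all 18 others, 3 of 6, among them 2 labelled cortex. For Gng7, Arpp21 and Ppp1r9b no low-Htt library was above all others, and for Gnal the lowest of the 6, at 81.6, was below 16 of the 18 others. Libraries labelled KO/+ without low Htt therefore had levels of these 8 genes that overlapped with those of the low-Htt libraries.

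**Figure D3:**
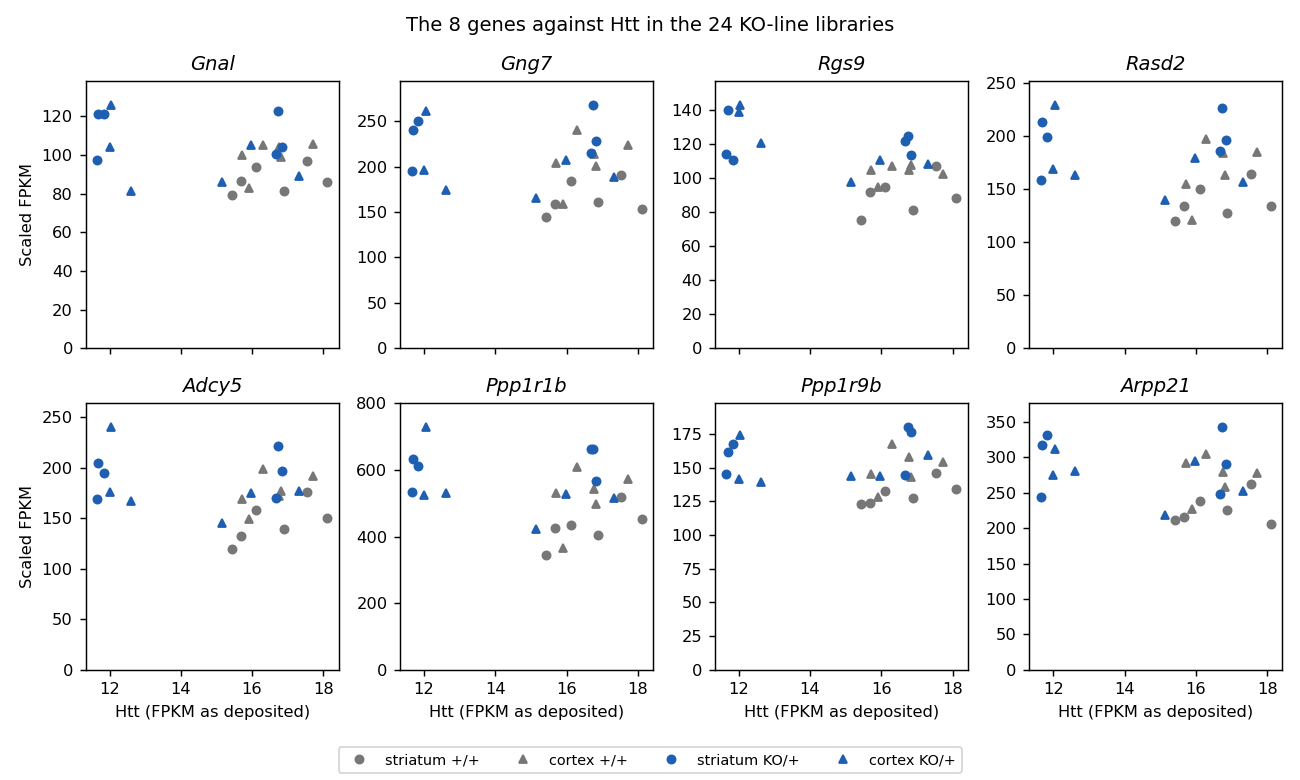
Scaled FPKM of each gene against the deposited Htt FPKM in the 24 KO-line libraries; circles are labelled striatum, triangles labelled cortex, blue KO/+ and grey +/+. The 6 low-Htt libraries (11.6 to 12.6 FPKM) are all labelled KO/+, and their levels overlap with those of the 18 others for every gene.

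In the Δ12 line the comparison of Δ12/Δ12 with +/+ mixed tissues by expression, since the 3 female Δ12/Δ12 libraries of each labelled tissue were striatum-like and all others cortex-like. In labelled striatum, 5 of the 8 genes were called higher (Gnal, Gng7, Rasd2, Adcy5 and Ppp1r9b), where 14.7% of all entries were called higher and 28.3% in either direction. Adcy5 was at 155, 175 and 194 scaled FPKM in the female Δ12/Δ12 libraries, at up to 6.19 in the male ones and at 4.69 to 7.92 in +/+. Rasd2 was at 138, 171 and 207, at 3.30, 4.23 and 5.02, and at 4.42 to 6.36 in the same sets. The fitted log2 fold changes of 2.39 ± 0.70 for Adcy5 and 2.30 ± 0.76 for Rasd2 (SE) thus averaged levels that lay far apart within one labelled group. In labelled cortex none of the 8 was called (0.274% of all entries were called higher and 0.924% in either direction, limma), with log2 fold changes from 0.29 for Arpp21 to 2.14 for Adcy5. Adcy5 was at 127, 139 and 159 in its female Δ12/Δ12 libraries and at 5.14, 5.30 and 5.44 in its male ones. The male Δ12/Δ12 libraries, cortex-like as all +/+ libraries were, overlapped with +/+ in Adcy5 in both labelled tissues (3.28 to 9.32 in +/+ of labelled cortex) and in Rasd2 in labelled striatum. In Rgs9 of labelled cortex the male libraries, at 4.78, 5.05 and 6.23, were all below +/+ at 7.82 to 9.37. Every other gene of the 8, and Rgs9 in labelled striatum, overlapped between these male libraries and +/+. The striatum-like female libraries alone were far above, and the fitted difference averages both. Within the female libraries, genotype and tissue by expression cannot be told apart. The count of 5 in labelled striatum fell to 0 when any one of the 3 female Δ12/Δ12 or 3 female +/+ libraries was left out. Over all entries, 5 to 6208 were called in either direction as each library was left out in turn.

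In Δ12/+ against the same +/+ libraries, none of the 8 genes was called in labelled striatum or in labelled cortex; 0.00663% and 0.0662% of all entries were called in either direction (limma), and 0.00663% and 0.0132% were called higher. In labelled striatum the log2 fold changes lay between 0.06 for Arpp21 and 0.56 for Adcy5. Adcy5 was at 4.03 to 54.9 scaled FPKM in Δ12/+ (median 4.97) and at 4.69 to 7.92 in +/+ (median 5.75), the highest value being male 3. Without male 2 and male 3, all 8 log2 fold changes were below 0, from −0.73 for Rasd2 up to −0.00782 for Arpp21, and again none was called. In labelled cortex they lay between −0.32 for Gng7 and 0.30 for Gnal, with limma adjusted p of 0.629 and 0.683. Ppp1r1b was at 45.8 to 73.5 in Δ12/+ and at 39.8 to 93.0 in +/+ there, with the Δ12/+ range inside that of +/+. The Δ12/+ and Δ12/Δ12 comparisons share their +/+ libraries.

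**Figure D4:**
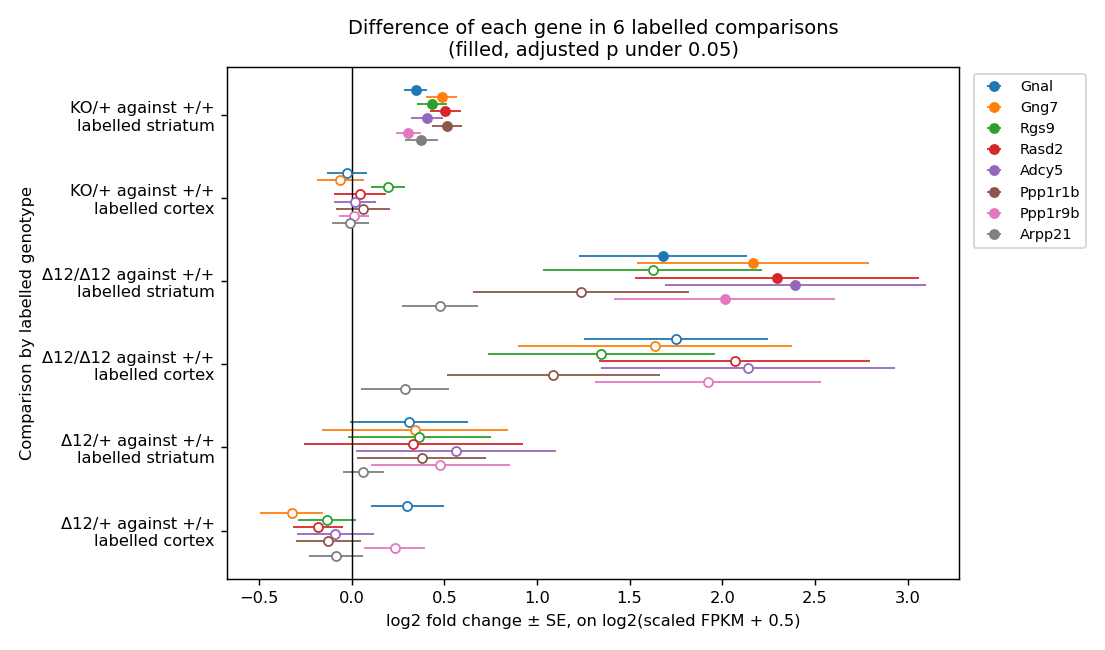
The log2 fold change ± SE of each of the 8 genes in 6 comparisons by labelled genotype, with 6 libraries a group; filled points have an adjusted p under 0.05. The 8 points of KO/+ in labelled striatum lie between 0.31 and 0.52, those of KO/+ in labelled cortex straddle 0, and the Δ12/Δ12 points carry wide errors.

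The KO-line +/+ libraries were also set against the Δ12-line +/+ libraries, which is the same division as striatum-like against cortex-like, so the outcome follows from that split and is given as a description. All 8 genes were higher without overlap in both labelled tissues, as were 33.4% of all entries in labelled striatum and 27.7% in labelled cortex. By limma 41.9% of all entries were called higher in labelled striatum (79.4% in either direction) and 36.5% in labelled cortex (68% in either direction), and nothing is read from the calls of the 8 genes. Their log2 fold changes ran from 0.83 for Arpp21 to 4.60 for Rasd2 in labelled striatum, and from 1.02 for Arpp21 to 4.76 for Adcy5 in labelled cortex. Line and tissue by expression cannot be told apart here.

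Of 50 other genes of the pathway, 15 were called higher and 4 lower in KO/+ against +/+ of labelled striatum, with a median log2 fold change of 0.15. Of all entries, 3.51% were called higher and 6.91% in either direction. The calls of pathway genes in this comparison, here and below, were made after scaling. With FPKM as deposited, far fewer of all entries were called higher, as given above. Whether the pathway calls held with FPKM as deposited is not given here, so those calls are not read as firm. Of the receptors, 3 of 6 rose. Drd2 was at 50.0 to 66.8 scaled FPKM in KO/+ and 34.8 to 47.7 in +/+ (log2 fold change 0.51 ± 0.08, SE, limma adjusted p = 0.00797). Drd1 was at 45.9 to 62.1 and 32.9 to 45.2 (log2 fold change 0.46 ± 0.10, limma adjusted p = 0.02), and the muscarinic receptor Chrm4 at 17.7 to 28.2 and 14.7 to 20.1 (limma adjusted p = 0.0213). The adenosine receptor Adora2a was at 50.3 to 98.4 and 47.8 to 74.3, and it did not pass (log2 fold change 0.41 ± 0.12, limma adjusted p = 0.0591). Of 5 phosphodiesterases, which break down cyclic nucleotides, 4 rose, with log2 fold changes of 0.45 for Pde2a, 0.46 for Pde10a and 0.38 for Pde1b. Of 9 phosphatase and kinase genes, 5 rose, among them the calcineurin subunit Ppp3ca (0.39), the phosphatase inhibitor Ppp1r1a (0.37) and Ppp1r9a (0.36), the neurabin relative of spinophilin.

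The G proteins did not move as one. Gnas, the widely expressed stimulatory subunit, was at 139 to 178 scaled FPKM in KO/+ and at 197 to 265 in +/+ of labelled striatum, a non-overlapping fall (log2 fold change −0.49 ± 0.08, SE, limma adjusted p = 0.00833), while Gnal rose. Of the 14 genes of the G protein list, 2 rose, the chaperone Ric8b (log2 fold change 0.28) and Rgs4 (0.29), 1 fell and 11 did not pass. None of the 6 other adenylyl cyclases rose, and Adcy8 fell, from 2.75 to 3.83 in +/+ to 1.20 to 1.74 in KO/+ (log2 fold change −0.93 ± 0.10, limma adjusted p = 0.00106). Of 6 protein kinase A subunits, only Prkar2a was called, and it fell (log2 fold change −0.39, limma adjusted p = 0.0156). Rasd1, a relative of Rasd2, fell with a log2 fold change of −1.06 (limma adjusted p = 0.00213), and Arpp19 rose by 0.55 (limma adjusted p = 0.0092). In labelled cortex of the KO line none of the 50 was called, and in Δ12/+ none of the 48 tested was called in either labelled tissue. In Δ12/Δ12, 10 were called higher and 3 lower in labelled striatum, where 14.7% of all entries were called higher and 28.3% in either direction. In labelled cortex 1 was called lower, Prkar1b, where 0.924% of all entries were called in either direction, and tissues were mixed in both as described.

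Within the 24 KO-line libraries, the 8 genes varied together. Across the 28 pairs, Pearson's r ran from 0.675 for Rgs9 with Ppp1r9b to 0.968 for Gng7 with Rasd2, with a median of 0.887. Spearman's rho ran from 0.651 to 0.957. Leaving out, for each pair, the 2 libraries farthest from the median of the first gene gave r of 0.560 to 0.957. The median r was 0.933 within labelled striatum, 0.837 within labelled cortex, 0.920 within labelled +/+ and 0.810 within labelled KO/+, with 12 libraries each. It was 0.906 with FPKM as deposited. The 24 libraries share a sequencing design and were all striatum-like.

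Within the 24 Δ12-line libraries labelled +/+ or Δ12/+, r ran from 0.252 to 0.909 with a median of 0.782. This rested on the labelled striatum Δ12/+ libraries male 2 and male 3. Without them r ran from −0.127 to 0.733 with a median of 0.285. Arpp21 had the lowest correlations with the others in the full set, from 0.25 to 0.48. The lowest r of any pair was 0.285 with FPKM as deposited and 0.635 after quantile normalization. The low values of Arpp21 were thus not seen after quantile normalization.

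**Figure D5:**
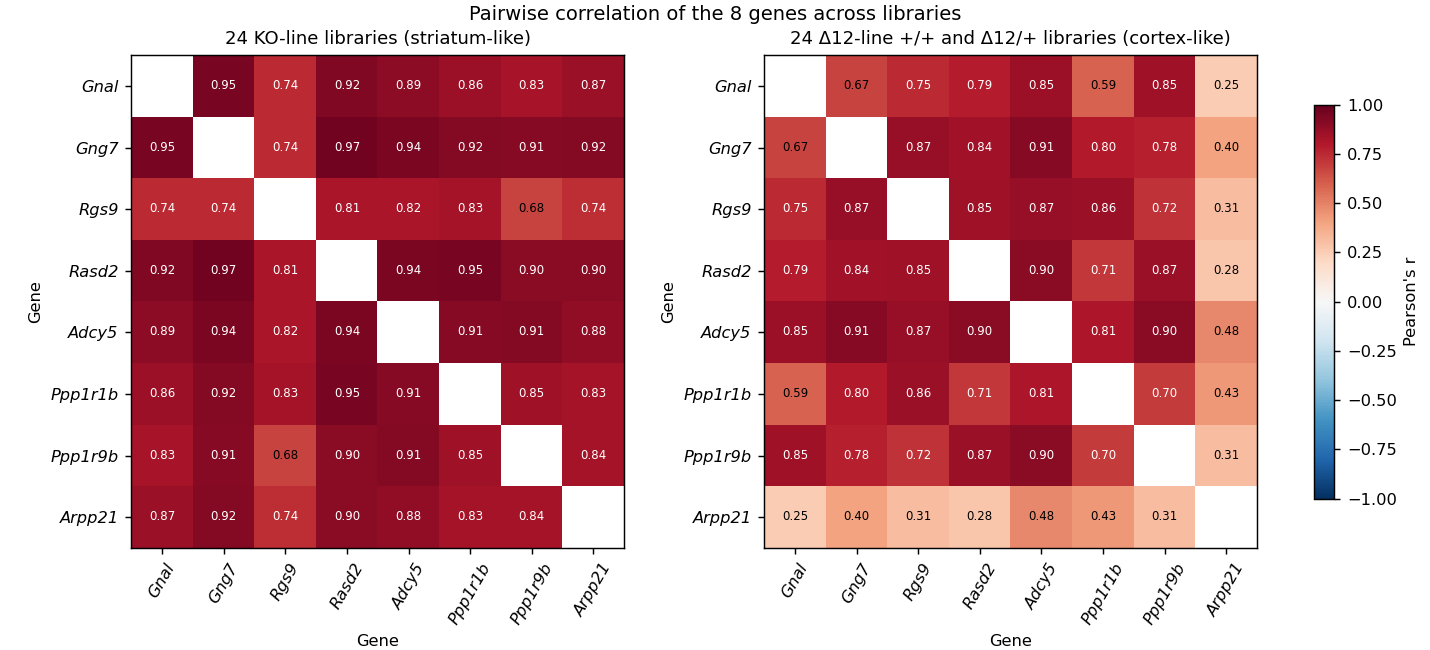
Pearson's r for each of the 28 pairs of the 8 genes, on log2(scaled FPKM + 0.5), across 24 KO-line libraries and across 24 Δ12-line +/+ and Δ12/+ libraries. In the KO line r is 0.68 to 0.97. In the Δ12 line Arpp21 has the lowest values with this scaling, from 0.25 to 0.48.

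The entries whose pattern was most like the mean of the 8 genes across the KO-line libraries were Lingo3 (r = 0.973), Syndig1l (0.972), Pde1b (0.965), Cplx2 (0.964) and Drd2 (0.961), out of 8393 compared, of which 97 had r of at least 0.9 and the median was 0.135. Across the Δ12-line libraries the nearest 4 were Pde10a (0.958), Pde1b (0.957), Scn4b (0.924) and Kif5a (0.901), out of 8389. Without the Δ12/+ libraries male 2 and male 3 the nearest 2 were Pde1b (0.875) and Pde10a (0.780). Pde1b, a calcium-dependent phosphodiesterase, was in each of these 3 lists. Entries in such lists can share depth or tissue composition with the 8 genes.

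Correlations of each of the 8 genes with Slc17a7 are given as a description, since Slc17a7 also served to read the tissue and each set of 24 libraries lies on one side of that division. In the KO-line libraries Pearson's r ran from −0.370 for Gnal to 0.070 for Rgs9, with a median of −0.13, and Spearman's rho from −0.349 to 0.079. Of 8392 other entries, 43.6% had an r at or below that median. Within the 12 libraries labelled KO/+, r ran from −0.888 to −0.459 with a median of −0.736, and 6.17% of 8320 entries were at or below it. Within the 12 labelled +/+, r ran from 0.139 to 0.421. In the Δ12-line libraries r ran from −0.694 for Rgs9 to −0.192 for Arpp21, with a median of −0.581, and 0.31% of 8388 entries were at or below it. Spearman's rho there ran from −0.307 to 0.265. Without the 2 libraries farthest from the median of Slc17a7, among them labelled striatum Δ12/+ male 3, r ran from −0.309 to 0.239, so the relation rests on those libraries. After quantile normalization it ran from −0.136 to 0.225.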

How the data were processed

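The study's RNA was depleted of ribosomal RNA, made into directional libraries and sequenced on a NovaSeq6000. The authors deposited one FPKM table per library, in a Cufflinks layout with confidence bounds. The submitters' processing notes name build GRCm38.p4, bcl2fastq 2.20, Trimmomatic 0.30, TopHat2 2.0.14, SAMtools 1.3 and HTSeq 0.6.1p1 without roles. FPKM values are not counts, so no count model was used. Depth is not given in the files; the bounds, read as counting error, imply an estimated 12700000 to 27500000 fragments a library. Of 47597 entries, 23 not marked OK by the quantification in every library were removed (among them Mbp). FPKM was divided by median-of-ratios factors (0.761 to 1.38) from 13235 entries above 0 in all libraries. limma 3.58.1 in R 4.3.3 was fitted on log2(scaled FPKM + 0.5), for entries with a mean of at least 0.5, with labelled sex as covariate and Benjamini-Hochberg adjustment; folds of low genes are understated. The script was tested on simulated data. Correlations were tested with 100000 permutations of library order (numpy 2.4.6, Python 3.11.15). Cortex-like meant Slc17a7 above 100 FPKM.

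The 8 genes and the pathway and marker lists were chosen with earlier results of these data known. All 8 genes are named. Pathway genes were given as counts, naming up to 3 called per list and comparison, and Drd1, Drd2, Adora2a and Gnas always; in comparisons that coincide with tissue or mix it, fewer are named. The 5 entries nearest to the mean z-score of the 8 genes had a mean of at least 5 scaled FPKM. Some named genes of the marker lists and of the nearest entries are not reported here. Alternatives were the scaling, pseudocount, filter, covariate, replicate block, larger fit, threshold and each library left out. Leaving out Δ12/+ male 2 and male 3, and the within-group and scaling values of the relation among the 8 genes, were chosen after seeing the data.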

Additional observations from a re-analysis of the deposited data

Results flagged for a closer look

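In 10 of 80 sets of 6 values, the highest or lowest library stood apart by Dixon's criterion for the gap to the nearest library, which by chance happens in about 1 of 20 sets. Of the 10, 6 came from one library, labelled striatum Δ12/+ male 3, which was highest with 35.3 scaled FPKM of Rgs9, 54.9 of Adcy5, 35.1 of Gnal, 65.1 of Gng7, 52.4 of Ppp1r9b and 48.4 of Rasd2. In the KO line, the library labelled cortex KO/+ female 2 was highest in Ppp1r1b (729) and Adcy5 (240.4), and the one labelled cortex +/+ female 2 was lowest in Gnal (83.1). The library labelled cortex Δ12-line +/+ male 1 was highest in Gng7 (22.0). The part of tissue composition in these values was not tested.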

How the results depend on the processing

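In KO/+ against +/+ of labelled striatum, 8 of the 8 genes were called. The count was 0 with FPKM as deposited, 0 with all 30 libraries of the labelled tissue in one fit, which includes the mixed Δ12/Δ12 group, and 5 to 8 when each library was left out. With replicate numbers as a block (replicate block), it was 4. Same-numbered libraries of the groups compared did not deviate together (r of −0.222 to 0.157 over the comparisons), so no pairing between those groups was seen. That check stayed within a single labelled tissue, so it does not bear on same-numbered cortex and striatum libraries. The other alternatives kept 8. In Δ12/Δ12 of labelled striatum the count of 5 became 0 without the filter, 0 without the sex covariate, 0 with the replicate block, 8 with all 30 libraries and 0 to 6 with one library left out, and it was 4 to 7 under the others. In labelled cortex the count of 0 became 7 with all 30 libraries, 4 at an adjusted p under 0.1 and 0 to 3 with one left out. Calls over all entries swung as well with one library left out. They ran from 5 to 6208 in Δ12/Δ12 of labelled striatum and from 12 to 3844 in labelled cortex. In KO/+ of labelled striatum they ran from 560 to 1243. For most of the other alternatives the share of all entries called is not given here. The changing counts are therefore not read as results about the 8 genes. The counts of the other comparisons did not change under the alternatives run. Causes were not tested except where the construction shows them.

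FPKM as deposited moved the median of all entries from 0.000948 to −0.147 in KO/+ of labelled cortex, where Ppp1r1b, Adcy5, Ppp1r9b and Rasd2 turned to −0.11, −0.15, −0.16 and −0.12. After quantile normalization Gnal, Gng7 and Arpp21 turned to 0.044, 0.034 and 0.11 there, and Ppp1r1b and Arpp21 to 0.10 and 0.27 in Δ12/+ of labelled cortex. With one library left out, the log2 fold changes in KO/+ of labelled cortex ran from −0.046 to 0.13 for Ppp1r1b, −0.078 to 0.082 for Adcy5, −0.097 to 0.026 for Gnal, −0.060 to 0.054 for Arpp21, −0.036 to 0.051 for Ppp1r9b and −0.056 to 0.11 for Rasd2. In Δ12/+ they ran from −0.085 to 0.57 for Gng7 and −0.18 to 0.66 for Rasd2 in labelled striatum, and from −0.23 to 0.026 for Adcy5 in labelled cortex. Without Δ12/+ male 2 and male 3 in labelled striatum, they were −0.043 for Ppp1r1b, −0.20 for Rgs9, −0.39 for Adcy5, −0.22 for Gnal, −0.48 for Gng7, −0.00782 for Arpp21, −0.13 for Ppp1r9b and −0.73 for Rasd2.

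The number of genes whose r with Slc17a7 had a permutation p under 0.05, adjusted over the 8 genes alone and given as a description, was 0 in the KO line and 6 within labelled KO/+. In the Δ12 line it was 7, then 8 within labelled striatum (r of −0.790 to −0.625, median −0.758), 0 with FPKM as deposited, with quantile normalization, within labelled cortex, within +/+, within Δ12/+ or without the 2 farthest libraries, and 1 without male 2 and male 3. The share of all entries passing the same test is not given here, and Slc17a7 also served to read the tissue. Nothing about the 8 genes is therefore read from these counts. The median r among the 8 genes was 0.81 within labelled KO/+ of the KO line, and in the Δ12 line 0.296 within labelled cortex, 0.361 within +/+, 0.896 within labelled striatum, 0.864 within Δ12/+, 0.823 with quantile normalization and 0.285 without male 2 and male 3. With FPKM as deposited, the ratio of tissue medians was 25.0 for Rasd2, 21.7 for Adcy5, 14.8 for Gng7 and 11.2 for Ppp1r9b. It was 11.0 for Rgs9, 6.97 for Gnal, 6.83 for Ppp1r1b and 1.52 for Arpp21. FPKM without counts limits what can be said of low levels.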
